A study of Mus musculus with 12 samples.

Results

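Mouse embryonic fibroblasts (MEFs) lacking Itpr2 were compared between late and early passage on 6 arrays, 3 in each group. The arrays were chosen by their titles alone, and they are 6 of the 12 arrays of the series, the other 6 being wild-type (WT) cultures at the same passages. MEFs are primary, mixed mesenchymal cells grown from whole embryos, here at stage E12.5. All cultures were grown in the same serum-containing medium, for 3 passages in the early groups and 5 passages in the late groups. The knock-out (KO) groups carry the Itpr2 KO genotype, and the labels give no strain, allele, age of parents or sex. The design text gives 3 independent animals per genotype as the source of the cultures, and it also mentions liver, which was not analysed here. Each array was hybridised with Cy3-labelled RNA made from 100 ng of total RNA. Since whole cultures were measured, fewer cells of a type and less RNA per cell cannot be told apart.

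The product of Itpr2 is a receptor for inositol trisphosphate and a channel through which the endoplasmic reticulum releases calcium. In fibroblasts that are split repeatedly in culture, growth-factor signalling can change, and primary mouse cells approach senescence. Senescence is a lasting arrest driven by the inhibitors of cyclin-dependent kinases and by p53. Calcium that passes from the endoplasmic reticulum to mitochondria feeds the respiratory chain, which is why the respiratory, calcium and senescence genes are described below beside the genes that moved most.

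Values are log2 signals relative to the 75th percentile of the same array, so that 0 is the level of that percentile and negative values lie below it. A gene was called changed when limma, fitted over all 4 groups, gave a Benjamini-Hochberg adjusted p under 0.05 over 19507 genes, and "rose" and "fell" are used for called genes only. Differences are late minus early in log2 units with the standard error (SE) of the fit and n = 3 per group. An exact permutation of 3 arrays against 3 cannot give a two-sided p below 0.1 for a single gene.

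On the KO arrays the share of probes above background ran from 59.2% to 63.1%, and 0 probes were saturated. The only kept Itpr2 probe read 1.12, 1.36 and 1.58 on the KO early arrays and 1.75, 1.83 and 1.72 on the KO late arrays, against means of 0.95 in WT early and 1.61 in WT late arrays. The probe was thus not lower in the libraries labelled KO, its place relative to the deletion is not stated by the labels or the files, and it does not check the genotype. The fibroblast label was checked with 16 markers, all measured. Col1a1, Col3a1 and Vim lay between 4.94 and 6.81 on every KO array. Macrophage markers were also present in every KO culture, with Csf1r between 3.15 and 4.12.

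A pair of arrays stood apart before any comparison. Xist, which coats the silenced X chromosome in female cells, was above background on KO late replicates 1 and 2 and on no KO early array. Ddx3y, a Y-linked helicase, read -0.14, -7.56 and 0.95 on KO late replicates 1, 2 and 3, against 0.76 to 0.82 on the KO early arrays. The late and early libraries thus differ in their sex-linked RNAs. KO late replicate 2, with Xist and a Ddx3y reading of -7.56, had a female pattern that no KO early array showed. KO late replicate 1 held both RNAs. At least KO late replicate 2 therefore does not match any KO early culture in sex, and the KO late and KO early cultures may not come from the same animals. Passage, animal and sex cannot be told apart. The main gene lists below are also given without that pair. In that fit a single KO late array remains, assumed to vary like the other groups, so that a call lost there says little about the gene, while a list's median remains a measurement. The numbers of the replicates match the 3 slides in the file headers, and on every slide the late arrays held positions 1 and 2 and the early arrays positions 3 and 4, so that passage and position cannot be told apart.

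Late passage changed 3696 of 19507 genes (18.9%), with 1941 higher (9.95%) and 1755 lower (9%). These shares are the background against which each list is read. A listed gene was measured where it passed the filter on dim probes, and one that passed only through the group where it is high had to differ. The median rise was 0.87 and the median fall -0.64, and the median over all genes was -0.047. Of the called genes, 1376 (7.05%) were at least 2-fold apart, 798 higher and 578 lower. Between 1 and 2 log2 units 666 rose and 375 fell, and over 3 log2 units 20 rose and 59 fell. The late and early arrays did not overlap for 51.9% of all genes, with 22.6% above and 29.3% below. On all 3 slides, 99.8% of the called genes had the same direction, with median sizes of 0.91, 0.74 and 0.61. The late arrays resembled each other more than the early ones did, with a median SD per gene of 0.0839 against 0.141. On the first principal component of the 6 arrays, with 72.1% of the variance, the early arrays lay at -63.4, -41.2 and -26.5 and the late arrays at 43.1, 46.2 and 41.8. KO early replicate 3 was thus the early array nearest to the late ones, and without it 3884 genes were called. Leaving out KO early replicate 1 gave 1978 calls, KO early replicate 2 gave 2063, and KO late replicates 1, 2 and 3 gave 1780, 2034 and 2210. Without both arrays with Xist, 165 genes were called, and with Xist as a covariate 2173. Of the 199 called genes named here, 173 lost their call without that pair and 55 to 75 without any single KO array other than KO early replicate 3, which cost 16.

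Immediate-early genes were the list with the largest share of rises. These genes code for transcription factors and signalling proteins that are switched on within minutes of a growth or stress signal, without new protein synthesis. Of 29 measured members, of 31 listed, 20 rose and 2 fell, against 9.95% and 9% of all genes. The median of the list was 0.86, with 0.69, 0.87 and 0.92 on the 3 slides, beside -0.047 over all genes. Without the pair with Xist the median was again 0.86, with 7 rises and 0 falls. The promoters of 5 members that rose are shown, chosen because they hold DNA words through which calcium, cAMP and serum signals are known to act. The 250 bases before the RefSeq start are given 5′ to 3′ on the gene's strand, from RefSeq promoters on build GRCm38.p6. Capitals mark TGACGNA, which holds TGACG, the core of the cAMP response element, on either strand in Nr4a1, Fos and Egr4. They also mark the CArG box, the word of serum response factor, in Egr2 and Srf.
Nr4a1, chr15:101266596-101266845, plus strand: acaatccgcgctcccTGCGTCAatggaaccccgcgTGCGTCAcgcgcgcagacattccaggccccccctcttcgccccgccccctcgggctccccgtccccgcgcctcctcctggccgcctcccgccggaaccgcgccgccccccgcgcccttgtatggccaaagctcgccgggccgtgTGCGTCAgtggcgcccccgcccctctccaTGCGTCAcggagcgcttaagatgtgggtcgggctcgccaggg
Fos, chr12:85473640-85473889, plus strand: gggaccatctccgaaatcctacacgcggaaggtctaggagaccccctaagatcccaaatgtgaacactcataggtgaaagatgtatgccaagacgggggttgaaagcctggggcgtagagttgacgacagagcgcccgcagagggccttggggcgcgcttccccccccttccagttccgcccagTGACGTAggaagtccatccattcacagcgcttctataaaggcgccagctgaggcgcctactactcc
Egr4, chr6:85513590-85513839, minus strand: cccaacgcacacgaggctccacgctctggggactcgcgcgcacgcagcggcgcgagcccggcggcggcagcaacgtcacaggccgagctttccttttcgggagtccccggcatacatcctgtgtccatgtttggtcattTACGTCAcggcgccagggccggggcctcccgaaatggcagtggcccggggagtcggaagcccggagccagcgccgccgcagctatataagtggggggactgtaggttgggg
Egr2, chr10:67537316-67537565, plus strand: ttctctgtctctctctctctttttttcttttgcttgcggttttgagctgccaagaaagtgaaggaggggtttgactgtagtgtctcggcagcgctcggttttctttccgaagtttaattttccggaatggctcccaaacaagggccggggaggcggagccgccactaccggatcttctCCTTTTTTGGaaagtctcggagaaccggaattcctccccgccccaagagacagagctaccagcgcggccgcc
Srf, chr17:46556163-46556412, minus strand: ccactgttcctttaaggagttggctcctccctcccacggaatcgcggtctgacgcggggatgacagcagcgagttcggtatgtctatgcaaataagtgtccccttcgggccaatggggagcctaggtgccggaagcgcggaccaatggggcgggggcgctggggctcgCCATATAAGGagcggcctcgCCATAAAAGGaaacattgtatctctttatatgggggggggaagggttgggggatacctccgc

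The windows searched were 300 bases long, 250 before and 50 after the start, on both strands. Of 15 rising members with a promoter in the table, 5 held TGACGNA (Ccn1, Egr4, Fos, Fosb and Nr4a1), as did 7 of all 22 measured members with a promoter and 6.15% of all 27025 genes with one. Nr4a1 held 4 copies, and its own promoter was the 1 of 32851 in the table that held as many. The letters were not set before that count, so it is a description only. A CArG box stood in 3 of the 15 (Egr2, Srf and Zfp36), in 3 of the 22 and in 1.81% of all genes. The letters searched were chosen after the promoters were seen, a match is a match of letters only, and no occupancy was measured.

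Nr4a1, a nuclear receptor induced by calcium and growth signals, had the smallest adjusted p among the members. Its values were 1.13, 1.20 and 1.27 on the KO early arrays and 4.36, 4.47 and 4.20 on the KO late arrays. The groups lay far apart on every slide, and the difference was 3.15 ± 0.089 (SE), an 8.85-fold rise (limma adjusted p = 9.7e-08). The related receptor Nr4a2 went from -0.56, -0.44 and -0.41 to 0.36, 0.43 and 0.41, a rise of 0.87 ± 0.098 (adjusted p = 0.00071).

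The EGR zinc-finger factors rose together in the 3 measured members. Egr1 read 1.87, 2.32 and 2.58 early and 4.22, 4.35 and 4.00 late, a rise of 1.94 ± 0.20 (adjusted p = 0.00045). Egr2 read -2.35, -1.72 and -1.45 early and 0.92, 1.06 and 0.80 late, a 6.8-fold rise of 2.77 ± 0.23 (adjusted p = 0.0002). Egr4, the member with the largest difference, was above background on 1 of 3 early arrays at -6.66, -6.28 and -6.25 and on all late arrays at -1.89, -1.73 and -2.10. Its difference of 4.49 ± 0.31 (adjusted p = 9.5e-05) is therefore of uncertain size. Srf, which codes for serum response factor itself, rose by 0.86 ± 0.14 (adjusted p = 0.0031).

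Members of the AP-1 family, dimers of Fos and Jun proteins, did not move alike. Fos read -2.13, -1.82 and -1.68 early and 0.61, 0.88 and 0.29 late, a rise of 2.47 ± 0.25 (adjusted p = 0.00042). Junb went from -4.44, -4.13 and -3.91 to -2.21, -1.99 and -2.58 and rose by 1.90 ± 0.26 (adjusted p = 0.0016), and Fosb rose by 0.81 ± 0.20 (adjusted p = 0.021). Jun had a difference of 0.24 ± 0.16 (adjusted p = 0.34), Jund -0.19 ± 0.17 (0.44) and Fosl1 -0.33 ± 0.39 (0.59). Fosl2 rose by 0.53, but its 2 kept probes pointed in opposite directions.

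Further rises were those of Arc (2.10), Ccn1 (1.67), Ier2 (1.45), Zfp36 (1.35), Ier3 (1.28), Ccn2 (1.06), Myc (0.94), Ier5 (0.58), Klf6 (0.55) and Btg2 (0.43). Ccn1 and Ccn2 are secreted matricellular proteins, Zfp36 destabilises cytokine mRNAs and Myc drives growth. Myc was tight within groups, at 0.48, 0.39 and 0.41 early and 1.37, 1.38 and 1.33 late. The 2 falls were Klf4, from 2.16, 1.87 and 1.55 to 0.87, 1.05 and 0.70 (-0.99 ± 0.21, adjusted p = 0.011), and Klf10 at -0.75 ± 0.16 (adjusted p = 0.011), both zinc-finger factors linked with growth arrest. The plot of immediate-early genes by array sets the members side by side.

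**Figure D1:**
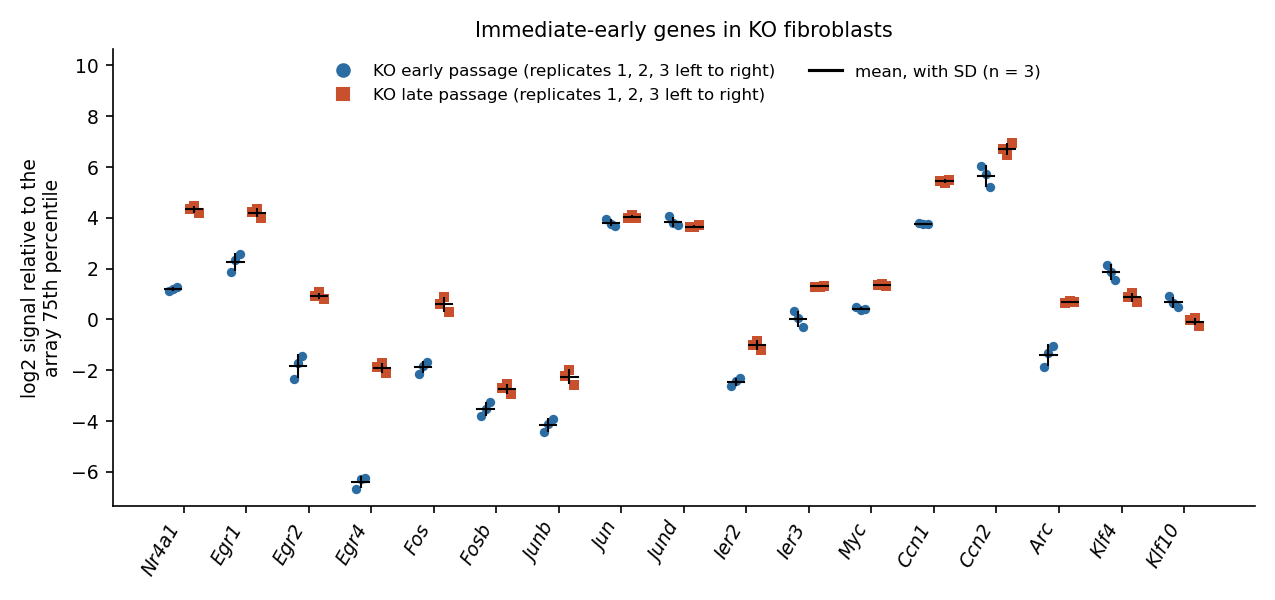
Log2 signal relative to the array's 75th percentile (vertical axis) of 17 immediate-early genes (horizontal axis) on the 3 KO early and 3 KO late arrays, with group means and SD. Nr4a1 goes from 1.13 to 1.27 early to 4.20 to 4.47 late, Jun and Jund differ little, and Klf4 and Klf10 lie lower on the late arrays.

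Feedback genes of the MAP kinase pathway, which the same signals induce and which shut it down, were mixed. Of 25 measured, 6 rose and 2 fell, with a median near 0 (-0.00055) whose sign changed with quantile normalization (0.039). Dusp2, a nuclear phosphatase of MAP kinases, read -2.86, -3.03 and -3.15 early and -0.51, -0.48 and -0.41 late, a 5.85-fold rise of 2.55 ± 0.57 (adjusted p = 0.013). Errfi1, an inhibitor of the EGF receptor, rose by 1.80 ± 0.18 (adjusted p = 0.00042), Dusp5 by 1.99 ± 0.33 and Dusp1 by 1.04 ± 0.30. Dusp5 was above background on 1 of 3 early arrays. Dusp4, in contrast, went from -2.42, -3.08 and -3.66 to -4.30, -4.03 and -4.46 and fell by 1.21 (SE 0.29, adjusted p = 0.017). Without the pair with Xist, 1 member was called higher and 0 lower.

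Growth factors and their receptors were called in both directions, with 11 rises and 7 falls among 39 and a median of 0.27 (0.33, 0.25 and 0.13 on the slides). Ligands of the EGF receptor were among the rises. Ereg read 0.24, -0.13 and -0.62 early and 1.25, 1.19 and 1.29 late (1.41 ± 0.21, adjusted p = 0.0026), and Hbegf rose by 1.21 ± 0.25 (adjusted p = 0.0097). Btc was above background on 0 of 3 early arrays and all late ones and was at least 3.24-fold higher (adjusted p = 0.003), the floor being the lowest signal called above background on each early array. Fgf7, a fibroblast factor acting on epithelia, rose by 0.77 ± 0.16 (adjusted p = 0.0098) and Fgf21, a metabolic hormone, by 1.95 ± 0.43 (adjusted p = 0.012). Among the falls, Fgf1 was at least 4.7-fold lower and was above background on 0 of 3 late arrays (adjusted p = 0.00034). Flt1, a VEGF receptor, read 0.24, 0.13 and -0.081 early and -1.60, -1.74 and -1.42 late (-1.68 ± 0.23, adjusted p = 0.0018). Without both arrays with Xist the median was 0.28, with 0 rises and 1 fall, and without single arrays 5 to 11 rose and 3 to 8 fell.

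Cytokines, chemokines and other factors that senescent cells are known to secrete had 8 rises and 3 falls among 37, with a median of 0.31 (0.42, 0.26 and 0.34 on the slides, and 0.37 without the pair with Xist, where 0 were called). Il6 read -2.57, -2.37 and -2.31 early and -0.56, -0.62 and -0.49 late. The late values all lay above the early ones, as was so for 22.6% of all genes, and the rise was 1.86 ± 0.27 (limma adjusted p = 0.0022). Lif, an IL-6 family cytokine, rose by 1.36 ± 0.29 (adjusted p = 0.011) and Cxcl1, a neutrophil chemokine, by 1.86 ± 0.57 (adjusted p = 0.046). Tnfrsf11b, the decoy receptor osteoprotegerin, rose by 1.66 ± 0.44 (adjusted p = 0.025). Ccl2, the monocyte chemokine, fell from 2.32, 2.23 and 2.13 to 1.61, 1.53 and 1.81 (-0.57 ± 0.12, adjusted p = 0.011). Csf1, a macrophage growth factor, and Hgf fell by 0.49 and 0.95. Macrophage markers, of which 0 of 20 were called, summed to 84.2 to 111 times the 75th percentile on the early arrays and to 116 at most and 61.8 at least on the late arrays, so the groups overlapped. Their part in the cytokine values was not tested. Without single arrays the rises of this list numbered from 3 to 9.

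Hox genes had 14 falls and 0 rises among 32 measured of 39 listed. These homeobox factors are laid out in 4 clusters in the order of the body axis, and fibroblasts keep a Hox pattern that records where in the embryo they came from. The median difference was -1.05 (-0.96, -1.02 and -1.21 on the slides) and -1.13 without the pair with Xist, where 1 was called. Among the 28 members above background on all 12 arrays, 14 fell and the median was -0.98. Position in the cluster was not tested. Anterior members of the A and B clusters had small positive differences that were not called, among them Hoxa2 0.58 (adjusted p = 0.077), Hoxa3 0.51 (0.28), Hoxb2 0.56 (0.29), Hoxb3 0.39 (0.39) and Hoxb4 0.58 (0.18). The 2 kept probes of Hoxb3 disagreed in direction.

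In the B cluster the 5 measured members from Hoxb5 to Hoxb9 fell, by -0.99, -1.48, -1.31, -2.15 and -1.80. Hoxb8, with the largest of these, read -2.90, -3.02 and -3.13 early and -4.94, -5.29 and -5.29 late (SE 0.29, adjusted p = 0.0015). All 5 measured members of the C cluster fell, from Hoxc4 at -1.32 ± 0.28 (adjusted p = 0.01) to Hoxc9 at -1.99 ± 0.33 (adjusted p = 0.004), with Hoxc5 at -1.12, Hoxc6 at -1.42 and Hoxc8 at -1.76 between them. In the A cluster Hoxa9, Hoxa10 and Hoxa11 fell by steps of increasing size. Hoxa11, a limb patterning gene, read 0.058, 0.066 and 0.12 early and -2.72, -3.04 and -2.35 late, a fall of 2.78 (SE 0.28, adjusted p = 0.00043). Hoxa10 changed by -1.65 ± 0.23 (adjusted p = 0.0018) and Hoxa9 by -0.98 ± 0.24 (adjusted p = 0.02).

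The D cluster was more uneven. Hoxd4, Hoxd8 and Hoxd9 had differences of -0.013, -0.098 and -0.039 and were not called, while Hoxd10 fell by 2.14 (SE 0.60, adjusted p = 0.033). The most posterior genes had large differences that did not pass the test. Hoxd13 read 0.73, 0.72 and 0.65 early and -1.76, -4.74 and -0.64 late (-3.08 ± 1.24, adjusted p = 0.11). Hoxd12 read -1.17, -1.25 and -1.30 early and -3.89, -8.27 and -2.63 late (-3.69 ± 1.58, adjusted p = 0.13). In both, all late arrays lay below all early ones, as was so for 29.3% of all genes. KO late replicate 2 was far lower than the other late arrays. Hoxa13 had the same order, at -5.73, -8.31 and -5.28 late (-3.17 ± 1.32, adjusted p = 0.12). For Hoxd12 and Hoxa13, 2 of 3 late arrays were above background.

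**Figure D2:**
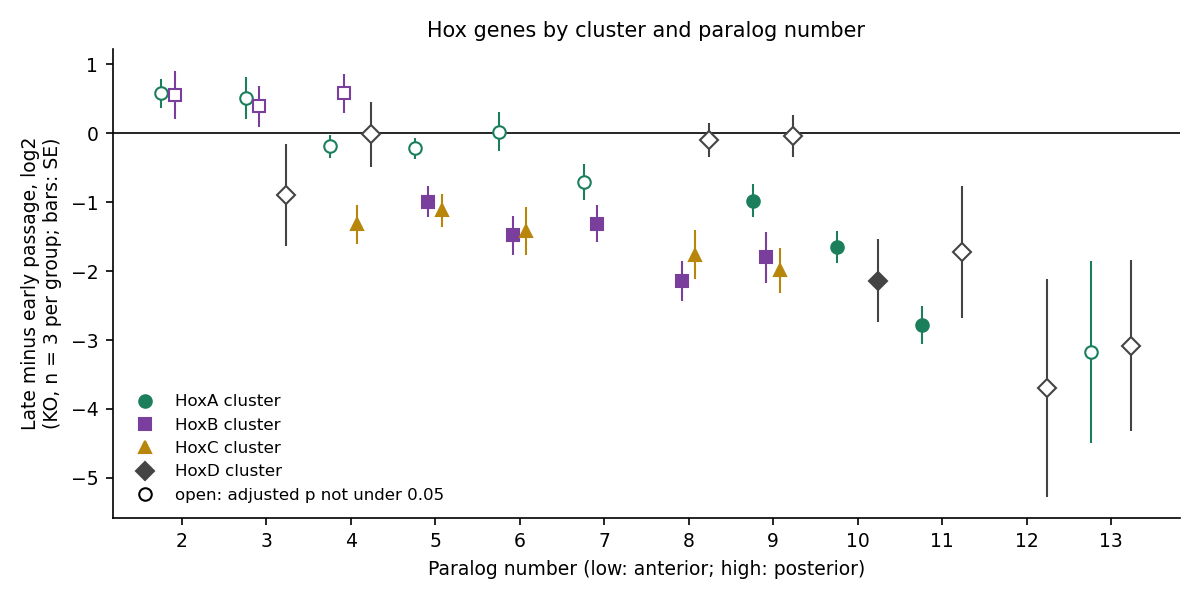
Late minus early difference in log2 units with its SE (vertical axis) for 31 of the 32 measured Hox genes against their paralog number (horizontal axis), by cluster, with filled symbols for called genes. The A and B members numbered 2 and 3 lie above 0, all C members and Hoxb5 to Hoxb9 are filled and below 0, and Hoxd8 and Hoxd9 lie near 0.

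Other transcription factors of mesoderm and mesenchyme were called in both directions. Among 74 measured of 80 listed, 22 fell and 13 rose, with a median of -0.55 (-0.55, -0.46 and -0.41 on the slides; -0.61 without the pair with Xist, where 4 fell and 0 rose). Among the 63 above background on all 12 arrays, 18 fell, 13 rose and the median was -0.22. Without single arrays 13 to 19 fell and 5 to 11 rose. Ebf2, a factor of adipocyte and bone precursors, read -1.51, -1.74 and -1.88 early and -5.43, -5.41 and -5.46 late, a 13.2-fold fall (-3.73 ± 0.31, adjusted p = 0.00021). Hand2, a heart and limb factor, read -1.59, -1.60 and -1.68 early and -4.30, -4.48 and -4.06 late (-2.66 ± 0.38, adjusted p = 0.002). Gata3 went from -0.76, -1.06 and -1.34 to -3.69, -3.64 and -3.73 (-2.63 ± 0.43, adjusted p = 0.0037). Prrx1, a limb mesenchyme factor, fell by 1.50 (SE 0.25, adjusted p = 0.0037), and Eya2, a cofactor of muscle and sensory development, by 2.74 (SE 0.39, adjusted p = 0.0021). Isl1, a heart and limb factor, was above background on 0 of 3 late arrays and was at least 4.09-fold lower.

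Rises in the same list included factors of the axial skeleton and tendon. Pax9, a sclerotome factor, read -1.95, -1.68 and -1.49 early and -0.16, -0.059 and -0.39 late (1.50 ± 0.22, adjusted p = 0.0025), and Nkx3-2, which acts with it in cartilage formation, rose by 1.92 ± 0.53 (adjusted p = 0.032). Scx, the tendon factor scleraxis, rose by 0.93 ± 0.15 (adjusted p = 0.0038) and Twist1 by 0.58 ± 0.14 (adjusted p = 0.016). The related gene Twist2 fell by 0.83 (SE 0.26, adjusted p = 0.049), and Pax1, the partner of Pax9, by 1.51 (SE 0.45, adjusted p = 0.043). Zeb1 and Zeb2, related repressors, were called in opposite directions, at 0.48 ± 0.12 (adjusted p = 0.02) and -1.43 ± 0.17 (adjusted p = 0.001).

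Markers of mesothelium, the lining of body cavities, were measured for 5 of 8 listed genes. Of these, Wt1, Upk1b and Upk3b were at background on every KO late array and passed the filter through another group, so that the count over the list supports no statement about it. The 2 markers above background on all 12 arrays, Msln and Krt19, both fell. Wt1, its defining transcription factor, read -3.37, -3.39 and -3.26 early and was above background on 0 of 3 late arrays, at least 9.61-fold lower (adjusted p = 0.00057). Msln, mesothelin, read -1.82, -1.96 and -2.01 early and -3.59, -3.56 and -3.98 late (-1.78 ± 0.44, adjusted p = 0.02). Krt19, a keratin also found in other epithelia, read 0.93, 0.19 and -0.79 early and -1.65, -1.77 and -1.52 late (-1.75 ± 0.39, adjusted p = 0.013). The summed level of the 5 markers was 0.982 to 2.35 times the 75th percentile on early arrays and 0.39 to 0.428 on late arrays. Krt19, the brightest of them, weighs most in this linear sum, which also includes Wt1, Upk1b and Upk3b. The sum therefore supports no statement about mesothelium either.

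Markers of other cell types were called in part. Among measured endothelial markers 2 rose and 1 fell of 7, among epithelial 0 and 2 of 7, among adipocyte 0 and 1 of 6, among bone 1 and 2 of 7 and among erythroid 0 and 0 of 2. Des, desmin of muscle, was at least 11.1-fold lower, from -3.15, -3.15 and -3.08 early to below background on all late arrays (adjusted p = 0.00011), and Actc1, cardiac actin, at least 5.46-fold. Of 10 striated muscle markers 3 fell, of 14 smooth muscle markers 4 fell and of 8 pericyte markers 2 fell, with 0 rises in each. Acta2, smooth muscle actin, was not called (-0.20 ± 0.18, adjusted p = 0.48). Of 9 neural and glial markers, 4 fell, with Stmn2 at -2.80 ± 0.49 and Fabp7 at -2.78 ± 0.49, and 1 rose. Of 16 fibroblast markers, 3 fell and 0 rose: Fap, a surface protease, from 0.48, 0.59 and 0.68 to -1.97, -2.24 and -1.77 (-2.58 ± 0.31, adjusted p = 0.00091), Thy1 by -1.75 ± 0.31 (adjusted p = 0.0052) and S100a4 by -1.27 ± 0.29 (adjusted p = 0.015).

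Of 15 cartilage markers measured, of 18 listed, 4 rose and 0 fell in KO, while 0 rose and 4 fell in WT. The test of the KO against the WT response, gene by gene, called 0 of them. The KO median was 0.79 (1.03, 0.60 and 0.39 on the slides; 0.83 and 0 calls without the pair with Xist). Among the 10 above background on all 12 arrays, 2 rose and the median was 0.45. Sox9, the master regulator of cartilage, read -0.48, -0.23 and -0.017 early and 0.56, 0.51 and 0.59 late (0.79 ± 0.15, adjusted p = 0.0068). Hapln1, a link protein of cartilage matrix, rose by 1.55 ± 0.40 (adjusted p = 0.024). Cnmd, chondromodulin, had the largest difference of the list, from -8.02, -5.13 and -4.31 to 0.49, 0.45 and 0.65 (6.35 ± 1.19, adjusted p = 0.0063), and was above background on 2 of 3 early arrays, so that its size is uncertain. Ucma was at least 3.02-fold higher. The defining collagen Col2a1 was not called (-0.18 ± 0.39, adjusted p = 0.78), nor was Acan at 2.56 ± 0.95 (adjusted p = 0.088). On the early arrays Sox9, Hapln1, Cnmd and Acan were lowest in replicate 1.

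Imprinted genes, which are expressed from the copy of a single parent and control embryonic growth, did not move as one. Of 25 measured, 5 rose and 4 fell, with a median of -0.13 (0.0078, -0.075 and -0.43 on the slides; -0.34 without the pair with Xist, where 0 rose and 1 fell), and without single arrays 2 to 5 rose and 2 or 3 fell. On chromosome 7, Igf2, the fetal insulin-like growth factor, read 1.72, 2.08 and 2.38 early and -1.01, -0.93 and -1.04 late. The groups lay far apart, and the fall was 3.06 (SE 0.32, adjusted p = 0.00051). Its antisense transcript Igf2os, at -1.95, -1.23 and -0.92 early and -4.71, -4.56 and -4.89 late, fell 10.2-fold (adjusted p = 0.00034), and whether the pair of probes reads separate RNAs was not tested. H19, the non-coding RNA of the same domain, was not called, at 7.55, 7.72 and 7.89 early and 7.23, 7.43 and 7.13 late (-0.46 ± 0.18, adjusted p = 0.11).

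The Dlk1-Dio3 domain on chromosome 12 gave rises of coding and non-coding RNAs, but not of Dlk1. Dio3, the deiodinase that inactivates thyroid hormone, read -3.70, -2.71 and -2.13 early and 0.018, -0.26 and 0.17 late, a 7.07-fold rise (2.82 ± 0.50, adjusted p = 0.0052). Dio3os, transcribed from the opposite strand, rose 7.81-fold (2.97 ± 0.50, adjusted p = 0.0041). Meg3, a maternally expressed non-coding RNA, read 1.93, 2.96 and 3.50 early and 4.82, 4.83 and 4.73 late (1.99 ± 0.34, adjusted p = 0.0046), and Mirg, a host transcript of microRNAs, rose by 1.06 ± 0.16 (adjusted p = 0.0027). Dlk1 had a difference of 0.022 ± 0.43 (adjusted p = 0.98). Peg3 and Zim1, neighbours in another domain of chromosome 7, rose by 1.36 ± 0.33 (adjusted p = 0.018) and 1.87 ± 0.44 (adjusted p = 0.016). In all of these rising genes KO early replicate 1 was the lowest array.

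The insulin-like growth factor axis had 3 rises and 6 falls among 19 (median -0.33; -0.22, -0.29 and -0.34 on the slides; -0.30 without the pair with Xist, where 0 rose and 1 fell). Without single arrays 2 to 4 fell. Igfbp6, a binding protein that prefers Igf2, read 3.18, 2.83 and 2.46 early and -0.98, -1.14 and -0.60 late, a 13.3-fold fall (-3.73 ± 0.55, adjusted p = 0.0025). Igfbp5 fell by 1.14 (SE 0.32, adjusted p = 0.034) with arrays that overlapped between the groups, while Igfbp2 went from 5.22, 5.73 and 6.24 to 7.63, 7.56 and 7.76 and rose by 1.92 ± 0.45 (adjusted p = 0.016). The receptor Igf1r read 2.06, 2.09 and 2.05 early and 2.73, 2.71 and 2.79 late (0.68 ± 0.086, adjusted p = 0.0013). Igf2r, which clears Igf2, fell by 0.46 (SE 0.13, adjusted p = 0.036).

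The respiratory chain and the ATP synthase are the mitochondrial machinery that makes ATP. Of 56 measured members, 29 fell and 0 rose, and all 56 had a negative difference. The median was -0.34, with -0.49, -0.32 and -0.18 on slides 1, 2 and 3, and -0.32 without the pair with Xist, where 0 were called. Falls included subunits of several complexes of the chain. Ndufb7, of complex I, read 5.20, 4.97 and 4.77 early and 4.39, 4.41 and 4.49 late (-0.55 ± 0.11, adjusted p = 0.0071). Sdhc, of complex II, changed by -0.41 ± 0.080 (adjusted p = 0.0075). Cox5b, of complex IV, read 5.02, 4.91 and 4.83 early and 4.36, 4.31 and 4.46 late (-0.54 ± 0.094, adjusted p = 0.0046). Atp5k, of the ATP synthase, changed by -0.53 ± 0.098 (adjusted p = 0.0063) and Cycs, cytochrome c, by -0.49 ± 0.12 (adjusted p = 0.017).

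The scaling bore on that list. Under quantile normalization 16 members fell and the median was -0.21, and with Xist as a covariate 9 fell with a median of -0.35. Dropping KO early replicate 1, 2 or 3 left 9, 14 or 35 falls, and dropping KO late replicate 1, 2 or 3 left 7, 9 or 15. Ribosomal protein genes had a median of -0.19 with 1 of 48 called, which became -0.016 with 0 called after quantile normalization. Of 24 falling respiratory genes with a promoter in the RefSeq table, 6 held the palindromic word of nuclear respiratory factor 1 on either strand (Atp5h, Atp5k, Atp5o, Cox6a1, Ndufa5 and Ndufs6). Of all 45 measured members with a promoter, fallen or not, 12 held it, beside 5.19% of all genes.

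In sterol synthesis, the pathway from acetyl-CoA to cholesterol, 12 of 25 genes fell and 0 rose, with a median of -0.51 (-0.63, -0.45 and -0.36 on the slides; -0.44 and 1 fall without the pair with Xist). Tm7sf2, a sterol reductase, was tight within groups, at a mean of 1.09 with an SD of 0.0062 early and at -0.062, -0.094 and -0.049 late (-1.16 ± 0.093, adjusted p = 0.00016). Fdps, which makes farnesyl pyrophosphate, changed by -0.94 ± 0.14 (adjusted p = 0.0026), Pmvk by -0.79 ± 0.12 (adjusted p = 0.0025) and Mvk by -0.68 ± 0.097 (adjusted p = 0.002). Hmgcs1, an early and strongly regulated step, was not called (-0.19 ± 0.12, adjusted p = 0.27), and its 2 kept probes differed in direction. The sterol regulatory element TCACNCCAC stood in 0 of 9 falling members with a promoter and in 1.44% of all genes. Leaving out single arrays left 7 to 10 falls.

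NRF2 targets and antioxidant genes had 9 falls and 1 rise among 41 (median -0.25; -0.40, -0.24 and -0.064 on the slides; -0.25 and 0 calls without the pair with Xist). Nqo1, a quinone reductase and classical target, read 0.72, -0.072 and -0.97 early and -1.80, -2.02 and -1.64 late (-1.71 ± 0.33, adjusted p = 0.0069). Gsta4, a glutathione transferase, fell by 2.05 (SE 0.33, adjusted p = 0.0033), while Sod3, the secreted superoxide dismutase, rose by 1.00 ± 0.28 (adjusted p = 0.034). Hmox1 was not called (-0.086 ± 0.17, adjusted p = 0.76). Without single arrays the falls of the list numbered 4 to 12.

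Genes of senescence and the p53 response were called lower more often than higher at the later passage. Of 38 p53 targets, 13 fell and 3 rose, with a median of -0.29 (-0.44, -0.29 and -0.26 on the slides; -0.38 and 0 calls without the pair with Xist). Cdkn1a, the p21 inhibitor of cyclin-dependent kinases, read 3.78, 3.68 and 3.67 early and 2.93, 3.06 and 2.83 late. All late values lay below all early ones, as was so for 29.3% of all genes, and the fall was 0.77 (SE 0.14, limma adjusted p = 0.0057). Ccng1 changed by -0.90 ± 0.21 (adjusted p = 0.016), Mdm2, which degrades p53, by -0.48 ± 0.13 (adjusted p = 0.033), and the death genes Bbc3 and Bax by -0.82 ± 0.14 (adjusted p = 0.0042) and -0.48 ± 0.14 (adjusted p = 0.039). The 3 rises were Plk3 (0.60), Ddb2 (0.47) and Btg2 (0.43). Trp53 itself was not called (-0.16 ± 0.28, adjusted p = 0.73). Without single arrays 7 to 14 targets fell.

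Inhibitors of cyclin-dependent kinases and senescence regulators had 7 falls and 1 rise among 19 (median -0.23; -0.27, -0.29 and -0.28 on the slides; -0.26 and 0 calls without the pair with Xist). Without single arrays 4 to 7 fell. Cdkn2b, the p15 inhibitor, read 3.20, 3.17 and 3.19 early and 1.90, 1.99 and 1.88 late (-1.27 ± 0.18, adjusted p = 0.0021). Cdkn2a, the locus of p16 and p19Arf, read 3.94, 3.79 and 3.72 early and 3.28, 3.31 and 3.36 late and was not called (-0.50 ± 0.26, adjusted p = 0.2), although the late arrays all lay below the early ones, as was so for 29.3% of all genes. Hmga1 and Hmga2, chromatin proteins of embryonic cells, changed by -1.50 ± 0.34 (adjusted p = 0.014) and -1.30 ± 0.29 (adjusted p = 0.013), and the other kept probes of Hmga1 ranged up to -0.12. Tbx2 and Tbx3, repressors of the Cdkn2a locus, changed by -1.50 ± 0.28 (adjusted p = 0.0061) and -0.80 ± 0.21 (adjusted p = 0.026).

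Proliferation genes had few calls. Of 44 genes of G2 and mitosis 1 fell and 0 rose (median -0.22), and 43 of the 44 differences were negative. The called gene was Aurka, a mitotic kinase (-0.48 ± 0.12, adjusted p = 0.019). Of 48 genes of DNA replication and S phase, 5 fell (Rrm2, Ccne1, Rrm1, Lig1 and Prim2) and 0 rose (median -0.19). Rrm2, of ribonucleotide reductase, read 3.67, 3.49 and 3.29 early and 2.77, 2.60 and 2.96 late (-0.71 ± 0.14, adjusted p = 0.0091). Mki67 was not called, at 3.20, 3.25 and 3.35 early and 3.04, 2.92 and 3.16 late (-0.23 ± 0.098, adjusted p = 0.14). In the BCL2 family, which controls release of cytochrome c, 6 of 17 fell and 1 rose, and the death-promoting Bak1 (-0.47), Bad (-0.29), Bbc3 and Bax were among the falls beside the protective Bcl2l1 (-0.37). The 2 kept probes of Bad and those of Bcl2l1 pointed in opposite directions. Quantile normalization left 2 falls in this family, leaving out any KO array but KO early replicate 3 left 1, and leaving out the pair with Xist left 0.

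Calcium handling genes, the family of the deleted channel, had 4 rises and 7 falls among 48. The share called, 22.9%, lay near the 18.9% of all genes. The median was -0.059, beside -0.047 over all genes (-0.071, 0.00037 and -0.087 on the slides, and -0.076 without the pair with Xist). Without single arrays 1 to 5 rose and 3 to 7 fell. The other inositol trisphosphate receptors were not called: Itpr1 read 1.20, 1.44 and 1.69 early and 1.66, 1.71 and 1.60 late (0.22 ± 0.12, adjusted p = 0.22), and Itpr3 had -0.42 ± 0.17 (adjusted p = 0.11). Trpc6, a receptor-operated calcium channel, read -4.17, -4.51 and -4.45 early and was above background on 0 of 3 late arrays, at least 4.68-fold lower (adjusted p = 0.00017). Cacna1g, a T-type calcium channel, read -1.31, -0.79 and -0.44 early and 0.63, 0.72 and 0.43 late (1.44 ± 0.21, adjusted p = 0.002). The store-operated channel subunits Orai2 and Orai3 changed by -0.50 ± 0.11 (adjusted p = 0.013) and -0.37 ± 0.099 (adjusted p = 0.028), and Atp2a3, a calcium pump of the endoplasmic reticulum, by -1.06 ± 0.19 (adjusted p = 0.005). Trpv2 (-0.68) and Rcan2 (-0.97) fell, and Trpv4 (0.59), Plcg1 (0.46) and Trpm7 (0.35) rose.

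Genes of mitochondrial calcium uptake and of organelle contacts had 1 rise and 5 falls among 29 (median -0.15). That is 20.7% called, beside 18.9% of all genes. Vapb, a tether, rose by 1.04 ± 0.28 (adjusted p = 0.028). Smdt1, a subunit of the mitochondrial calcium uniporter, read 5.36, 5.21 and 5.11 early and 4.77, 4.80 and 4.73 late (-0.46 ± 0.086, adjusted p = 0.0059). Mfn2 and Opa1, of mitochondrial fusion, changed by -0.33 ± 0.096 (adjusted p = 0.037) and -0.33 ± 0.084 (adjusted p = 0.022), and the other kept probe of Opa1 had 0.10. Mcu, the pore of the uniporter, was not called (-0.15 ± 0.21, adjusted p = 0.65). Leaving out any KO array except KO early replicate 3 left 1 or 2 falls, and leaving out the pair with Xist left 0.

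Matrix genes were counted in 4 lists. Of 34 collagen chains, 1 rose (Col5a2, 0.79 ± 0.22, adjusted p = 0.031) and 2 fell (Col24a1 and Col4a5), and of 13 small proteoglycans 1 rose and 1 fell. Among 53 elastic-fibre, matricellular and crosslinking genes, 8 rose and 8 fell. Eln, elastin, read 0.055, 0.99 and 1.47 early and -1.67, -1.52 and -1.55 late (-2.42 ± 0.60, adjusted p = 0.02). Has1 and Has2, the hyaluronan synthases, rose by 2.01 ± 0.20 (adjusted p = 0.00043) and 1.19 ± 0.18 (adjusted p = 0.0026). Sparcl1, a matricellular protein, fell by 2.40 (SE 0.36, adjusted p = 0.0027). Of 24 metalloproteinases and inhibitors, 6 fell and 0 rose, among them Mmp23 (-1.27 ± 0.19, adjusted p = 0.0026) and Adamts5 (-0.88 ± 0.14, adjusted p = 0.003). Without the pair with Xist, 3 of the elastic-fibre and matricellular genes rose, 0 fell, and 0 collagens, small proteoglycans and metalloproteinases were called.

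In TGF-beta and BMP signalling, 9 of 44 fell and 2 rose, with a median near 0 (-0.015) whose sign changed with quantile normalization (0.08). BMP ligands and their antagonists were both among the falls. Gdf10 read -0.89, -0.81 and -0.83 early and -4.01, -4.88 and -3.76 late (-3.38 ± 0.48, adjusted p = 0.002), and Bmp2 and Bmp5 changed by -1.25 ± 0.35 (adjusted p = 0.034) and -1.73 ± 0.45 (adjusted p = 0.024), Bmp5 with 1 of 3 late arrays above background. The antagonist Grem1 read 4.21, 3.55 and 2.80 early and 2.27, 2.31 and 2.12 late (-1.28 ± 0.32, adjusted p = 0.02). Tgfbi, a matrix protein induced by TGF-beta, rose from 3.24, 3.94 and 4.22 to 5.47, 5.56 and 5.36 (1.66 ± 0.29, adjusted p = 0.0048). Of 39 Wnt genes, 7 rose and 3 fell. Wnt10a, Wnt16 and Wnt5b rose by 2.29, 1.94 and 1.37, and the receptors Fzd1, Fzd6 and Fzd8 by 1.01, 0.86 and 1.02. Lef1, the nuclear partner of beta-catenin, fell from -3.91, -4.48 and -5.03 to -6.40, -7.02 and -7.53 (-2.51 ± 0.46, adjusted p = 0.0057), with 1 of 3 late arrays above background. Without the pair with Xist 0 genes of both lists were called.

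Complement genes had 5 rises and 2 falls among 18 (median 0.13; 0.58, 0.44 and -0.94 on the slides; -0.42 with 1 rise and 0 falls without the pair with Xist). C3, the central component, read -2.01, -1.80 and -1.54 early and 0.45, 0.51 and 0.40 late (2.24 ± 0.20, adjusted p = 0.00024). C1ra and C1s1, proteases of the first component, rose by 1.18 ± 0.20 (adjusted p = 0.0039) and 1.06 ± 0.19 (adjusted p = 0.0049). The macrophage markers had medians of 0.18, 0.38 and -0.95 on the same slides, and their part in the complement median was not tested. Of 40 interferon response genes 4 rose (Ifi44, Usp18, Gbp3 and Ifi27) and 0 fell, a share near the background. Among ATF4 targets 3 rose and 5 fell of 31, among chaperones of the endoplasmic reticulum 0 rose and 3 fell of 28, and among glycolysis genes 1 rose and 2 fell of 25. Their medians lay between -0.16 and -0.07, and the sign changed with quantile normalization for ATF4 targets (0.034) and glycolysis (0.06). Nuclear lamina and HMGB genes had 1 rise and 5 falls among 22. The bar plot of the gene lists gives the counts together.

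**Figure D3:**
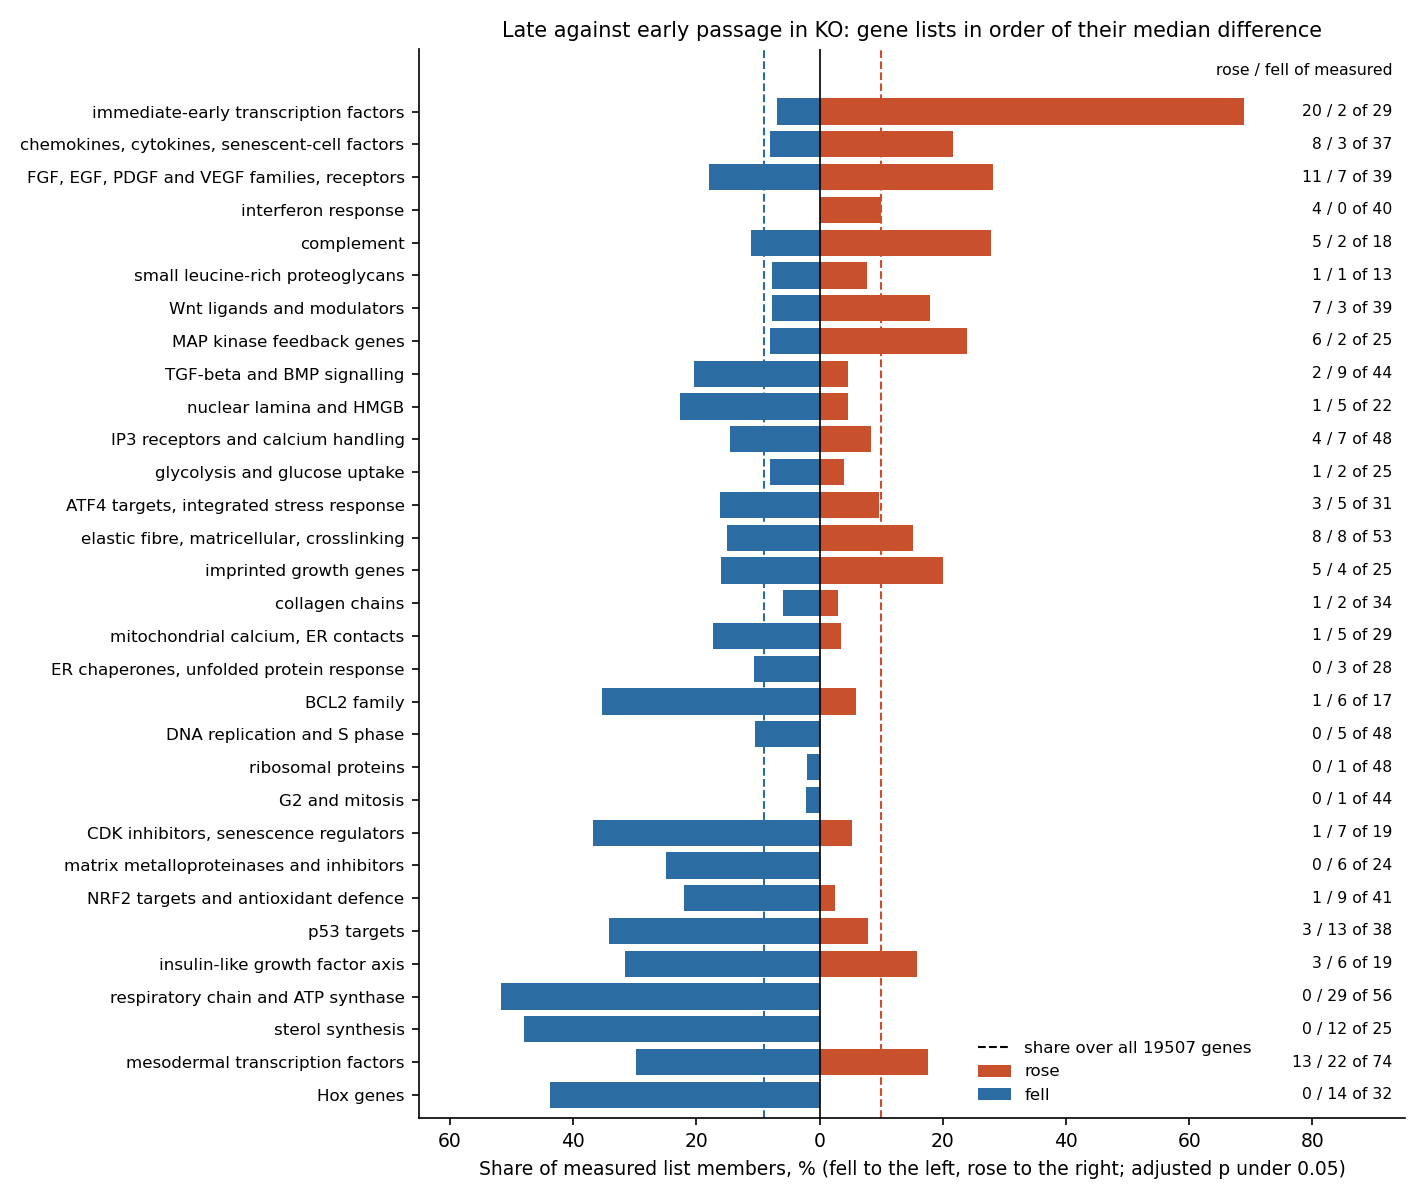
Share of measured members that rose (right) or fell (left) at late passage, in percent, for 31 gene lists in order of their median difference, with the counts at the right and dashed lines at the shares over all 19507 genes (9.95% and 9%). The immediate-early list extends furthest to the right, with 20 of 29, and the respiratory, sterol and Hox lists furthest to the left.

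Among single genes, the largest rises measured on all 6 arrays were led by Slc1a1, a neuronal and renal glutamate transporter, at -5.92, -5.55 and -5.35 early and -1.68, -1.70 and -1.63 late (15.3-fold, 3.94 ± 0.64, adjusted p = 0.0035). Pax8, a thyroid and kidney factor, rose 8.42-fold, from -4.21, -3.54 and -3.13 to -0.60, -0.68 and -0.37 (adjusted p = 0.002). Slpi, an inhibitor of leukocyte proteases, read -3.42, -3.46 and -3.13 early and -0.38, -0.29 and -0.44 late (7.82-fold, adjusted p = 0.002). C4bp, a complement regulator, Cldn19, a tight-junction protein, Ppbp, a platelet chemokine, and Sorcs1, a sorting receptor, rose 6-fold, 5.98-fold, 5.77-fold and 5.6-fold. The remaining 5 of the 12 were Nr4a1, Dio3os, Dio3, Egr2 and Dusp2, given above. Genes above background only at late passage included Cpne4 (at least 11.4-fold higher), Pnoc (8.03), Chil1 (6.04), Syndig1 (5.15), Kctd16 (5.08) and Il17rb (4.54).

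Among genes above background on all 6 KO arrays, the falls were led by Klk8, a secreted serine protease. It read -0.054, -0.85 and -2.14 early and -5.16, -5.07 and -5.54 late, an 18.9-fold fall (-4.24 ± 0.44, adjusted p = 0.00049). Crabp1, a retinoic acid binding protein of embryonic mesenchyme and neural crest, read 1.82, 1.68 and 1.56 early and -2.41, -2.09 and -2.86 late, a 17.6-fold fall (-4.14 ± 0.96, adjusted p = 0.015). Lhx8, a homeobox factor of the forebrain and head, fell 16.5-fold (adjusted p = 0.034) and the non-coding Pantr1 fell 17.2-fold (adjusted p = 0.017). Tnnt2, cardiac troponin T, was tight within groups, at -1.59, -1.70 and -1.76 early and -5.14, -4.97 and -5.18 late (10.6-fold, adjusted p = 2.5e-05). Galnt18 and Pcp4 fell 10.6-fold and 10.5-fold, and Igfbp6, Ebf2, Gdf10 and Igf2os are given above. Genes above background only at early passage included Nts, the neuropeptide neurotensin (at least 9.45-fold lower), Wdr72 (9.04), Ptgir, a prostacyclin receptor (8.33), and Pcdh20 (7.85), beside Des and Wt1.

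**Figure D4:**
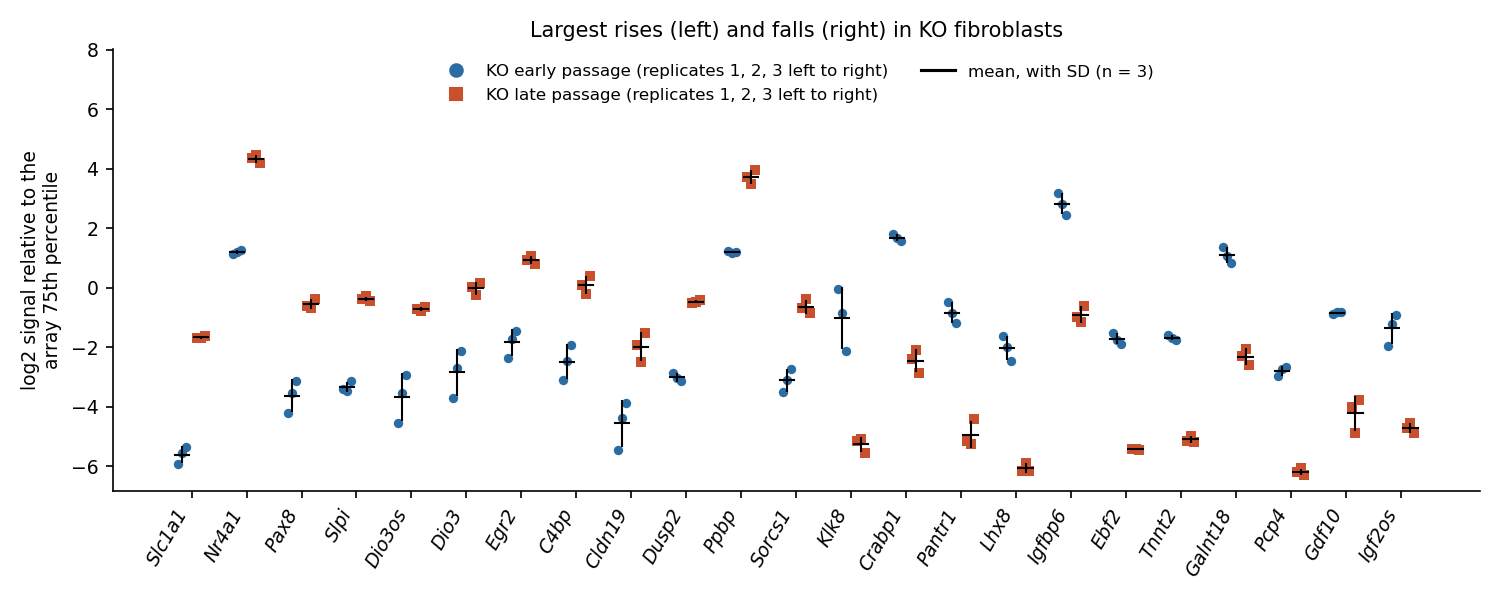
Log2 signal relative to the array's 75th percentile (vertical axis) for the 12 largest rises, from Slc1a1 to Sorcs1, and 11 of the 12 largest falls, from Klk8 to Igf2os, on the 3 KO early and 3 KO late arrays, with means and SD. In each of these genes, chosen for their difference, the groups do not overlap, and the early arrays of Klk8 are the widest apart, from -0.054 to -2.14.

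The same step from early to late passage was measured in WT cultures, on arrays of their own that shared the 3 slides. There 2065 genes (10.6%) were called, 6.22% of all genes higher and 4.37% lower, and 1187 genes were called in both genotypes. Of the shared genes 787 rose in both, 387 fell in both and 13 were called in opposite directions. The genes called in the same direction were 31.8% of the KO calls and 56.9% of the WT calls. Among KO rises 93.1% had a positive difference in WT, and among KO falls 83.5% had a negative one. The same shares over all genes were not computed, and passage and slide position cannot be told apart in WT either. Across genes, which are not independent replicates, the differences correlated with r = 0.59. Immediate-early genes had a WT median of 0.86 with 17 rises, Hox genes -0.65 with 6 falls, respiratory genes -0.12 with 0 calls and sterol genes -0.19 with 5 falls. Other lists had medians of opposite sign in the genotypes, and those differences between medians were not tested. Gene by gene, 0 members of the cartilage, macrophage, small proteoglycan and Wnt lists passed the interaction test described below. Cartilage markers had a WT median of -0.53 with 0 rises and 4 falls (0.79 with 4 rises in KO), macrophage markers 0.86 with 2 rises (-0.14 in KO), small proteoglycans -0.87 with 6 falls (0.11 in KO) and Wnt genes -0.42 with 8 falls (0.024 in KO).

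The difference between the responses was tested as an interaction, and 17 of 19507 genes passed (0.0871%), beside 2713 at an unadjusted p under 0.05. Nr4a1 rose further in KO than in WT (3.15 against 2.10, difference 1.04 ± 0.13, adjusted p = 0.018). Tnnt2 fell in KO by more than it differed in WT, at -3.41 against -0.45 (difference -2.96 ± 0.25, adjusted p = 0.0061). Ccl2 fell in KO and rose in WT (-0.57 against 1.09, difference -1.66 ± 0.18, adjusted p = 0.011). Nes, the intermediate filament nestin, also moved in opposite directions, reading 1.56, 1.09 and 0.68 early and -0.13, -0.24 and -0.025 late in KO, while its WT difference was 0.83 (difference -2.08 ± 0.27, adjusted p = 0.021). Dpyd, an enzyme of pyrimidine breakdown, and Serpina9, a protease inhibitor, had KO differences of -1.12 and -0.92 and WT differences of 0.75 and 0.71. Trib3, a pseudokinase induced by stress, and Fxyd6, a regulator of the sodium pump, were not called in KO (0.37 and 0.16) and fell in WT (-1.20 and -1.38). With the replicate number as a block 4 genes passed, 3 of them among the 17. Leaving out KO early replicate 3 gave 230 such genes, KO early replicate 1 gave 9, KO late replicate 3 gave 8, and KO early replicate 2 or KO late replicate 1 or 2 gave 1, so the count rests on single arrays. Leaving out WT arrays gave 11 to 42, with the most, 42, without WT late replicate 1. Without both arrays with Xist 0 passed by limma, with 1194 at an unadjusted p under 0.05. The scatter of KO against WT differences shows where these genes lie among all genes named.

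**Figure D5:**
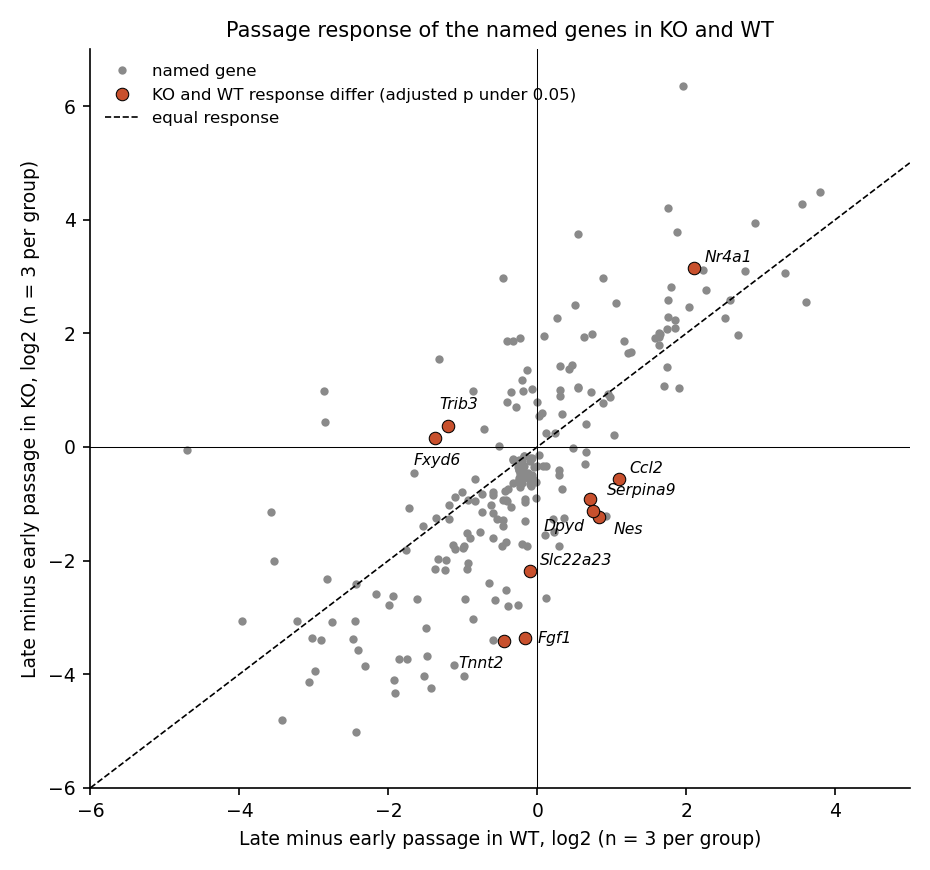
Late minus early difference in KO (vertical axis) against that in WT (horizontal axis), both in log2 units, for the 228 named genes, with the 10 whose responses differ between genotypes marked and a dashed line of equal response. Some of the marked genes were named because they passed that test. Most points lie in the quadrants of equal direction, Nr4a1 lies above the line, and Ccl2, Nes, Dpyd and Serpina9 lie right of 0 and below it.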

How the data were processed

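RNA from 12 MEF cultures, 3 in each of 4 groups, was measured on one-colour Agilent arrays with 39429 probes each. The deposited scanner files hold spot intensities, and the intensity used was Agilent's processed signal, which Feature Extraction 11.5.1.1 had background-corrected, per the file headers (the submitters' processing notes name 10.7.3.1). The authors' deposited table holds log2 values centred per probe: 95% of its 22887 probe means lay within 0.0001 of 0, and its column medians lay between -0.0428 and 0.0232. It was compared with the scanner values for a single difference, KO late replicate 1 minus KO early replicate 1. There it was on the log2 scale in the same direction (median absolute difference 0.0209). The authors' values were used as an alternative.

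Each processed signal was divided by its array's 75th percentile and put on a log2 scale. Control spots and outlier flags were left out, repeated spots were averaged, and a probe was kept when every array of 1 or more groups had it above background (24466 probes). A gene with several was represented by its brightest kept probe, giving 19507 genes. limma 3.58.1 (R 4.3.3) was fitted over the 4 groups (lmFit and eBayes, 8 residual degrees of freedom), with Benjamini-Hochberg adjustment over all genes, and was tested on simulated data. For genes above background on 0 arrays of a group, a lower bound of the fold was set from the lowest signal called above background. Files had no mean signal column, so the normexp alternative used median signals with an offset of 50. The list sums are linear signals relative to the 75th percentile.

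Named genes were first the 12 largest rises and 12 largest falls among called genes with an established symbol, above background on all 6 KO arrays and without overlap. To these were added the 6 largest bounds in each direction, up to 5 called members of each list and a fixed set of key genes. Genes with an established symbol that passed the interaction test and were above background on all 12 arrays were named too. Other members are named from the lists' calls, after their values were seen. The members and lists were chosen with earlier results of these data known. Promoters came from RefSeq (GRCm38.p6), and 161 of 228 named genes matched. Where the labels do not separate cultures, p-values measure the spread between these samples. Replicate numbers coincide with the 3 slides. Deviations of same-numbered KO arrays correlated at 0.03, 0.08 and -0.09, so the numbers were not taken as pairs in KO. Same-numbered WT arrays correlated at 0.28, 0.24 and 0.14. Xist was above background on replicate 1 of both WT groups and on no other WT array. The parts of a shared slide and a shared animal in the WT correlations were not tested. The replicate block is therefore also given for the interaction. The number of arrays limits the precision. Alternatives were quantile normalization, normexp, the filter, the replicate block, array weights, the mean of probes, the authors' table, an Xist covariate and left-out arrays. A few genes that the rule would name are not reported here.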

Additional observations from a re-analysis of the deposited data

Results flagged for a closer look

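For 17 genes the response to passage differed between KO and WT by the interaction test of limma (adjusted p under 0.05), given here as the KO response minus the WT response in log2 units. A larger fall, or a fall in place of a rise, in KO was seen for TC1625260, an expressed sequence cluster (-4.05), S100g (-3.73), Trim54 (-3.61), Fgf1 (-3.20), Tnnt2 (-2.96), Nup210l (-2.71), Slc22a23 (-2.09), Nes (-2.08), Dpyd (-1.87), Ccl2 (-1.66), Serpina9 (-1.63), Chst8 (-1.49) and ENSMUST00000089450 (-1.41). The KO response was the higher of the pair for Nr4a1 (1.04), Fxyd6 (1.55), Trib3 (1.56) and Chrdl2 (2.65). Tnnt2 kept its call in 22 of 23 alternatives (adjusted p from 0.0028 to 0.26), Ccl2 in 17 of 23 (0.0027 to 0.38), S100g in 16 of 21 and Chrdl2 in 16 of 21. Trim54 kept it in 6 of 21 and Fgf1 in 8 of 21.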

How the results depend on the processing

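Late passage changed 3696 genes in KO, 1941 higher and 1755 lower. With no filter on dim probes, 2320 were called (996 lower), and with array weights per group 6581 (3098 higher, 3483 lower). With Xist as a covariate 2173 were called (847 lower), without both KO late arrays with Xist 165 (90 higher, 75 lower), and with a fold of at least 2 there were 1376 (798 higher, 578 lower). The 6 KO arrays fitted alone gave 5399, of which 2752 lower. Without single KO arrays the calls ranged from 1780 to 3884, the rises from 1034 to 2039 and the falls from 746 to 1845. Quantile normalization gave 1971 higher and 1396 lower, and normexp, another background correction on another signal column, gave 1371 and 1400. The 17 genes whose response differed between genotypes became 46 with normexp, 3 with no filter, 8 with probes above background on all 12 arrays, 9 with the authors' table, 6 with Xist as a covariate and 0 without both KO late arrays with Xist, and without single arrays they ranged from 1 to 230. With the replicate number as a replicate block, 3747 genes were called in KO, 3361 of them also without it, and 4 responses differed between genotypes, 3 of them among the 17. The paired fit of the 6 KO arrays alone gave 2684. Over the alternatives 0 of the called named genes reversed (genes not called, such as Mmp3 from -0.55 to 1.61, did change sign), 97 of the 199 called named genes kept their call in every alternative except the removal of both arrays with Xist, and 25 also in that one. The causes of these shifts were not tested. The dim end limits the fold of genes near background.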

Other observations

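Transcripts known only as RIKEN cDNA clones were called higher at late passage far more often than named mRNAs. Of 1044 such genes, 380 rose (36.4%) and 30 fell (2.87%), with a median difference of 0.49 and slide medians of 0.67, 0.45 and 0.30. Of 14099 genes with a RefSeq mRNA, 7.17% rose and 10.4% fell. The clones had a median level of -4.14 on the KO arrays, against -0.32 for RefSeq mRNAs, so they lie near the dim end of the arrays. In WT cultures 20.2% of the clones rose. The share that rose was 34.2% after quantile normalization, 19.8% with normexp, 26.4% with no filter on dim probes, 36.4% among the 739 clones above background on all 12 arrays, and 2.59% without both KO late arrays with Xist. RefSeq non-coding RNAs, at a median level of -3.60, rose in 15.4% of 526 and fell in 7.22%. These classes were formed after the data were seen, and the part of signal level in these shares was not tested.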
